A study of Mus musculus with 12 samples.

Results

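The vacuolar proton pump and the CLC chloride transport proteins were examined in pancreatic islets of mice with 2, 1 or no intact copies of Wfs1, the gene disrupted in Wolfram syndrome. Members were all entries of the islet expression table whose symbol starts with Atp6v, Atp6ap or Clcn, plus Ostm1, without pseudogenes and duplicate copies. This rule gave 35 genes of the 24078 entries: 13 of the cytosolic V1 sector of the pump, 9 of its membrane V0 sector, 3 accessory genes and 10 of the chloride group (9 Clcn genes and Ostm1). Of these, 33 averaged 0.1 RPKM or more (reads per length of transcript and per size of library) and were among the 21701 entries tested. The other 2 fell under this minimum.

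The mice were male F2 hybrids of 129S6/SvEvTac and C57BL/6, 5 to 6 months old, and were wild-type (WT), heterozygous (Wfs1HZ) or homozygous (Wfs1KO) for the Wfs1tm1Koks allele. In this allele a LacZ cassette takes the place of most of exon 8 in the germline, and a truncated fusion protein is still made, so that Wfs1KO is not a complete knock-out and the change is not limited to the islet. Islets of 4 animals per genotype were isolated with collagenase, picked by hand and kept in high-glucose medium overnight, and each animal gave 1 library. In bulk islet samples fewer cells of a type and less RNA per cell cannot be told apart.

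The vacuolar ATPase pumps protons into secretory granules, endosomes and lysosomes. Its V1 sector binds and splits ATP in the A and B subunits and turns a rotor, while the V0 sector carries the protons through the membrane with the c ring and the a subunit. Most CLC proteins of vesicles exchange chloride for protons and so balance the charge that the pump moves. In the beta cell the acid granule lumen is needed for the conversion of proinsulin to insulin, and WFS1, a protein of the endoplasmic reticulum that is also found in granules, has been described as a partner of the V1 A subunit.

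Wfs1 itself read 24.85 to 33.94 RPKM in WT, 4.69 to 16.43 RPKM in Wfs1HZ and 2.45 to 6.61 RPKM in Wfs1KO, so WT stood apart from both mutant groups while Wfs1HZ and Wfs1KO overlapped. Ins1 and Gcg, the hormone genes of beta and alpha cells, reached 4980.53 RPKM or more and 50072.6 RPKM or more in every library. The summed level of 11 acinar enzyme and regulator genes ran from 8204 RPKM in Wfs1KO replicate 4 to 298700 RPKM in Wfs1HZ replicate 4, and the ranges of the genotypes overlapped. Estimated depth was 2182000 to 9563000 reads, lowest in Wfs1HZ replicate 2. This depth was inferred from the RPKM and is below the number of reads per sample that the paper gives. In Wfs1HZ replicate 2, 3 reads on a transcript of 2000 nt are worth 0.687 RPKM, against 0.157 RPKM in the deepest library. Wfs1HZ replicate 2 also stood apart by its median over all entries, 3.37 RPKM against 0.75 to 1.73 RPKM in the others.

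The core of the pump was among the abundant transcripts of WT islets. RPKM is per length, but how well it compares levels of different genes here depends on annotation and counting, which are not given. By WT mean, 3 members had at least 100 RPKM, 7 lay between 50 and 100 RPKM, 10 between 10 and 50 RPKM, 5 between 1 and 10 RPKM and 10 under 1 RPKM. Every subunit of V1 and V0 had at least 1 gene with a WT mean over 10 RPKM, while those under 1 RPKM were mostly further copies of a subunit.

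**Figure D1:**
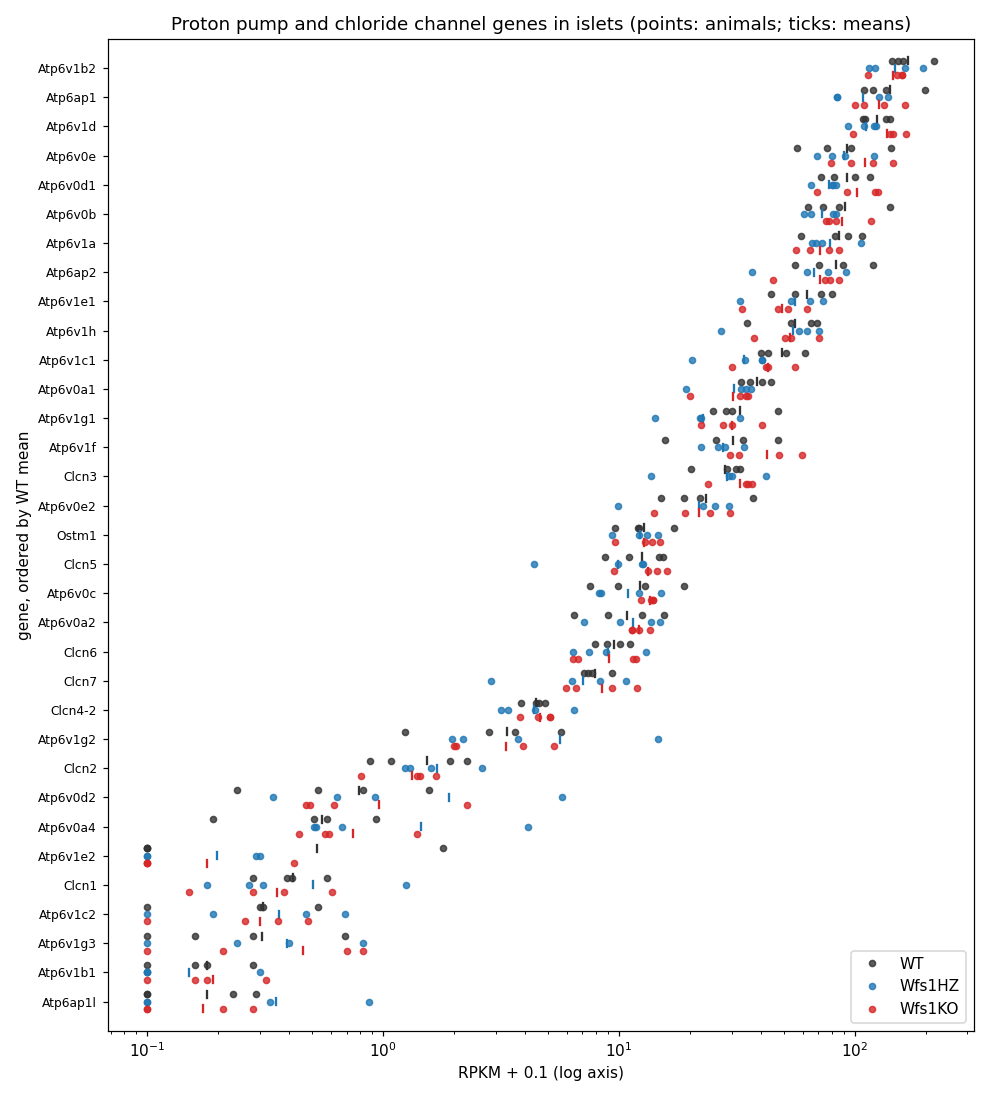
RPKM + 0.1 of 33 members (horizontal log axis, 1 point per animal, vertical ticks for the genotype mean, n = 4) for WT, Wfs1HZ and Wfs1KO, with genes ordered by WT mean. The members span from 167.9 RPKM for Atp6v1b2 to 0.08 RPKM for Atp6ap1l in WT, and the points of the 3 genotypes overlap in every row.

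In the V1 sector, Atp6v1b2, which encodes the B subunit of the catalytic head, had the highest WT level of all members (168 ± 33.2 RPKM, mean ± SD, n = 4). It was the highest member in 10 of 12 animals, the exceptions being Wfs1HZ replicate 1, led by Atp6ap1, and Wfs1KO replicate 1, led by Atp6v1d. Atp6v1a, the catalytic A subunit and the described partner of WFS1, read 85.3 ± 20.3 RPKM in WT, and the level of Atp6v1b2 was 1.68 to 2.44 times that of Atp6v1a over the 12 animals. The 2 subunits alternate in the assembled head.

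Rotor and stalk genes followed. Atp6v1d, part of the central rotor, read 124 ± 17.1 RPKM in WT and Atp6v1f, its partner in the rotor, 30.4 ± 13.2 RPKM. Atp6v1e1 and Atp6v1g1, which form the peripheral stalks, read 62.8 ± 16.1 and 32.6 ± 9.87 RPKM. Atp6v1h and Atp6v1c1, which act in the reversible joining of V1 to V0, read 55.4 ± 15.3 and 48.8 ± 9.60 RPKM.

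In the V0 sector, Atp6v0e (92.8 ± 36.7 RPKM), Atp6v0d1 (92.1 ± 19.5 RPKM) and Atp6v0b (90.6 ± 34.6 RPKM) were at nearly the same WT level. They encode the small e subunit, the d subunit that couples the rotor to the ring and the c'' subunit of the ring. Atp6v0a1, an a subunit with the proton path, read 38.2 ± 4.91 RPKM, Atp6v0e2 23.2 ± 9.66 RPKM and Atp6v0a2 10.7 ± 3.95 RPKM. Atp6v0c, the main ring subunit, was listed at only 12.2 ± 4.87 RPKM.

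Of the accessory genes, Atp6ap1 (140 ± 39.7 RPKM), which helps to assemble V0, and Atp6ap2 (83.4 ± 27.3 RPKM), also known as the prorenin receptor, were among the 8 highest members in WT. Among the vesicle CLC genes the WT order was Clcn3 (28.0 ± 5.60 RPKM), Clcn5 (12.4 ± 3.14 RPKM), Clcn6 (9.42 ± 1.39 RPKM), Clcn7 (7.80 ± 1.01 RPKM) and Clcn4-2 (4.33 ± 0.421 RPKM). Ostm1, the partner subunit that the lysosomal exchanger ClC-7 needs, read 12.7 ± 3.15 RPKM. Of the whole order of 35 levels, neighbouring genes overlapped between the WT animals everywhere except between Clcn7 (7.02 to 9.28 RPKM) and Clcn4-2 (3.76 to 4.76 RPKM).

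Atp6v0c needs a reading of its own, because its RPKM kept a nearly fixed ratio to that of a processed copy. The pseudogene Atp6v0c-ps2 (chr6:37806086-37806550, GRCm38, plus strand) had 1.02 to 1.03 times the RPKM of Atp6v0c (chr17:24163866-24169702, minus strand) in all 12 animals. Atp6v0c read 18.69, 9.84, 7.40 and 12.81 RPKM in WT replicates 1 to 4, and the copy read 19.24, 10.13, 7.62 and 13.19 RPKM. The estimated reads of Atp6v0c were 21.3 to 193.2 per library. Separate counts of 2 entries with as many reads each would give this ratio a counting SD of 10.2% to 30.6%. The copy is shorter (465 nt against 1183 nt), so at a similar RPKM it has fewer reads, and the counting SD would be larger. The ratio varied with an SD of 0.21%. Of the 1109 stretches of 75 nt, the forward read length, in the Atp6v0c transcript, 316 (28.5%) also occur in its pseudogenes. How reads were assigned to the 2 entries is not given, and the cause of the nearly fixed ratio was not tested. The level listed for Atp6v0c is therefore uncertain, and so is the ratio of Atp6v0b to it, which was 5.39 to 10.1 over the animals. The next largest shares of such shared stretches were 12.5% for Atp6v1g1 and 7.4% for Atp6v1f.

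Where several genes encode 1 subunit, the islets used mainly 1 of them. Atp6v1b2 made up 99.8% to 100% of the summed RPKM of the B genes in each of the 12 animals, Atp6v1c1 98.2% to 100% of the C genes, Atp6v1e1 97.1% to 100% of the E genes and Atp6v0d1 93.5% to 99.8% of the d genes. The remainder came from Atp6v1b1, known from kidney, Atp6v1c2, Atp6v1e2, known from testis, and Atp6v0d2, known from osteoclasts. Atp6v1e2 was at 0 in 8 of 12 animals, and 29.4% of its exon bases overlap a transcript of the opposite strand.

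Other subunits were shared more evenly. Atp6v0e held 75.1% to 87.6% of the e subunit signal and Atp6v0e2 12.4% to 24.9%. Atp6v1g1 held 82.1% to 95% of the G signal in WT and 87.8% to 92.2% in Wfs1KO, whereas in Wfs1HZ replicate 2 the share was 59.0%, with 39.0% for Atp6v1g2, a G gene known from neurons. For the a subunit, counted with Tcirg1, the a3 gene known from lysosomes and osteoclasts, Atp6v0a1 led in every animal and Atp6v0a2 was next.

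The make-up of the a subunit is given by genotype, as a description with no test. The share of Atp6v0a1 was 66.6% to 77.8% in WT, 61.0% to 70.2% in Wfs1HZ and 56.5% to 69.6% in Wfs1KO, with overlap between the groups. That of Tcirg1 was 4.66% to 5.94% in WT and 7.33% to 9.27% in Wfs1HZ, which did not overlap, and 5.45% to 10.5% in Wfs1KO, which overlapped both. In RPKM, Tcirg1 overlapped between WT (2.17 to 3.58) and Wfs1HZ (2.64 to 4.95). Many shares were read in this way, and how often such shares do not overlap by chance was not computed.

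**Figure D2:**
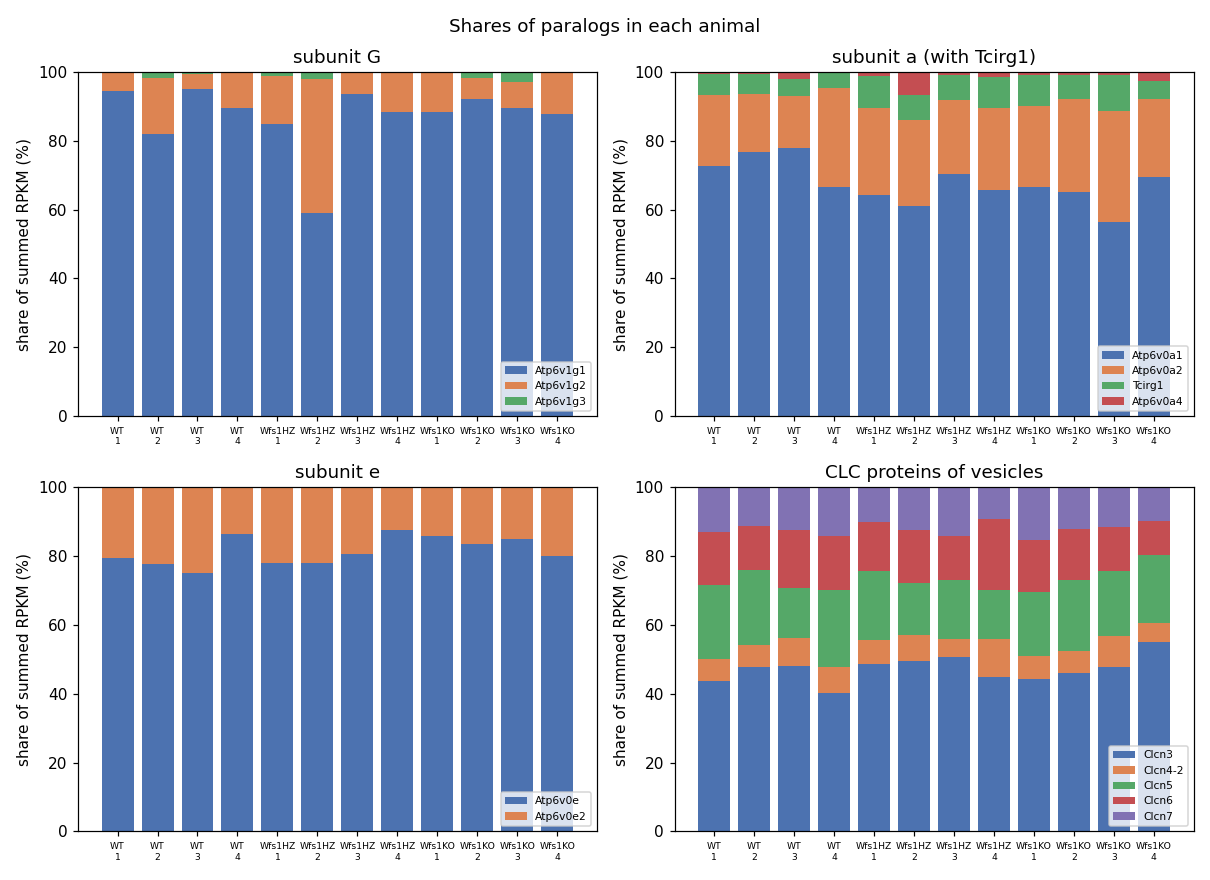
Share of each gene in the summed RPKM (%, vertical axis) of the G, a and e subunits and of the CLC proteins of vesicles, 1 stacked bar per animal (4 per genotype). Atp6v1g1, Atp6v0a1, Atp6v0e and Clcn3 hold the largest share in every animal, and Wfs1HZ replicate 2 stands out in the G subunit with 39.0% from Atp6v1g2.

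Among the CLC genes of vesicles, Clcn3, which resides on endosomes and vesicles, held 40.3% to 55% of the summed RPKM over the 12 animals. Clcn5, of early endosomes, held 14.2% to 22.1%, Clcn6, of late endosomes, 9.90% to 20.8%, Clcn7, of lysosomes, 9.21% to 15.2% and Clcn4-2 5.34% to 10.9%. The ranges of all 5 shares overlapped between the genotypes. Of the channels of the cell surface, Clcn2 read 1.44 ± 0.663 RPKM in WT, and Clcn1, the channel of skeletal muscle, read 0.18 to 0.48 RPKM.

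The low members rest on few reads. Estimated reads per library were 0 to 4.2 for Atp6v1b1, 0 to 2.0 for Atp6ap1l, 0 to 5.9 for Atp6v1c2, 0 to 6.3 for Atp6v1e2, 0 to 10.9 for Atp6v1g3 and 1.1 to 9.8 for Clcn1. Atp6v0a4 and Atp6v0d2 had 1.9 to 28.9 and 1.0 to 33.0 reads. Differences between genotypes in these 8 genes were not detectable at this depth.

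The question of the genotype comparison was whether the acidification genes are read at another level without intact WFS1. No member passed the test between Wfs1KO and WT. The limma test, adjusted over all entries tested, called 0 of 33 members at an adjusted p under 0.05, against 0.0138% of all entries (3 entries), and 0 of 33 at an unadjusted p under 0.05, against 5.64% of all entries. In 0 of 33 members did the animals of the genotypes not overlap, against 2.74% of all entries.

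The fitted differences were small. The estimate was above 0 in Wfs1KO for 16 of the 33 members and below 0 for 17, with a median log2 fold change of -0.03, on the log2(RPKM + 0.1) scale, against 0.07 for all entries tested. For the 22 members that averaged 5 RPKM or more, the fold changes ran from -0.36 to 0.52. Their 95% intervals stayed within a 2-fold change in either direction for 21 of 22, the exception being Atp6v1f, and this held for 73.7% of all entries at such levels. Intervals of the 11 lower members were wide, and only 1 of them, that of Clcn4-2, stayed within these bounds.

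By sector, V0 members had a median log2 fold change of 0.22 in Wfs1KO against WT (7 of 9 higher), V1 members -0.08 (4 of 12 higher), accessory members -0.14 (0 of 3 higher) and the chloride group 0.02 (5 of 9 higher). Of all entries tested 57.4% were higher. The V0 median is the value of Atp6v0c, whose level is uncertain. The higher V0 members include Atp6v0a4 and Atp6v0d2, which rest on few reads. None of the members passed the test. Under median-of-ratios scaling and quantile normalization the V0 median was 0.19 and 0.02 and the V1 median -0.11 and -0.22, and that of the chloride group was -0.01 and 0.00. The summed RPKM of V1 divided by that of V0, which the scaling of a whole library does not change, was 1.51 to 2.10 in WT, 1.60 to 1.77 in Wfs1HZ and 1.46 to 1.59 in Wfs1KO. Wfs1KO lay lowest and did not overlap Wfs1HZ but overlapped WT. The highest Wfs1KO ratio was 1.592 and the lowest Wfs1HZ ratio 1.604. This ratio was given no test. Several sums and ratios were read, and how often such quantities do not overlap by chance was not computed.

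**Figure D3:**
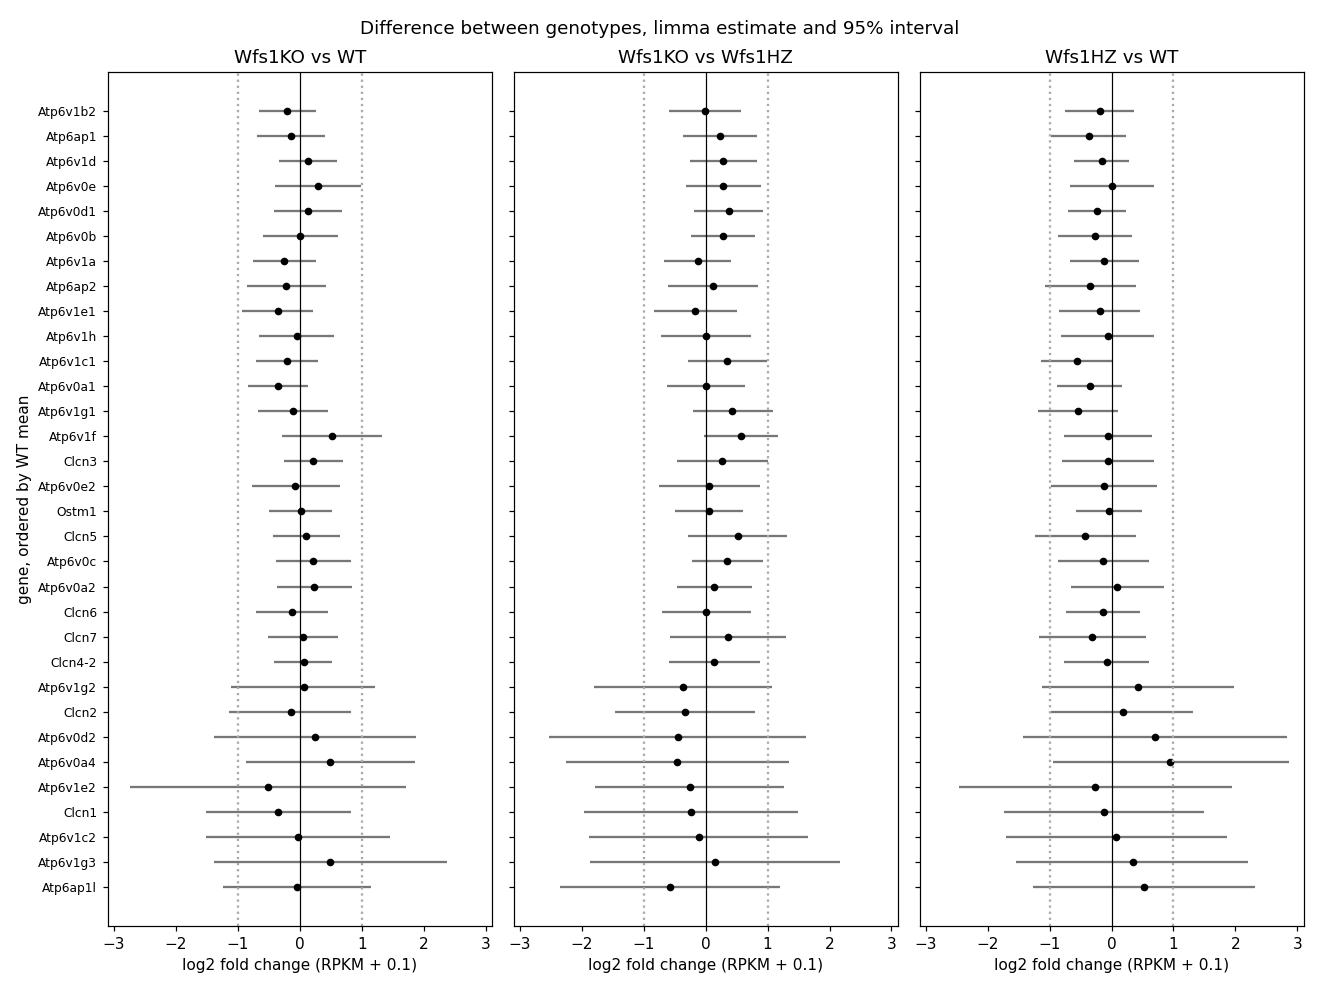
log2 fold change of 32 tested members (horizontal axis, log2(RPKM + 0.1) scale) in each comparison, as the limma estimate (point) with its 95% interval (line, 4 animals per genotype). Dotted lines mark a log2 fold change of 1 in either direction. All intervals include 0, and those of the genes at the bottom, with few reads, are the widest.

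Atp6v1a (chr16:44085402-44139705, minus strand) was of interest as the described partner of WFS1. It read 106.65, 58.75, 82.29 and 93.34 RPKM in WT replicates 1 to 4, 72.73, 68.40, 106.30 and 65.65 RPKM in Wfs1HZ and 85.61, 77.81, 56.33 and 64.67 RPKM in Wfs1KO. Every Wfs1HZ and Wfs1KO animal but Wfs1KO replicate 3 lay within the WT range. The log2 fold change in Wfs1KO against WT was -0.25 (SE 0.23, 95% interval -0.76 to 0.26, limma adjusted p = 0.93).

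Atp6v0a1 (chr11:101009452-101063719, plus strand) had the lowest p of the members in this comparison. Its levels were 43.81, 40.41, 32.75 and 35.72 RPKM in WT, 34.34, 36.16, 32.65 and 19.11 RPKM in Wfs1HZ and 34.40, 32.33, 19.82 and 35.15 RPKM in Wfs1KO. Of the Wfs1KO animals 2 lay within the WT range and 2 below it. The log2 fold change was -0.35 (SE 0.21, 95% interval -0.83 to 0.13, limma adjusted p = 0.883, exact permutation p = 0.114).

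Atp6v1f (chr6:29467718-29470512, plus strand), of the rotor, read 46.91, 33.41, 15.57 and 25.68 RPKM in WT, 26.27, 22.09, 33.82 and 28.05 RPKM in Wfs1HZ and 59.40, 32.06, 29.51 and 47.53 RPKM in Wfs1KO. In Wfs1KO 2 animals lay above all others, and the other 2 lay within the WT and Wfs1HZ ranges. Against WT the log2 fold change was 0.52 (SE 0.35, 95% interval -0.28 to 1.32, limma adjusted p = 0.908). It was 0.57 against Wfs1HZ (SE 0.27, 95% interval -0.03 to 1.17, limma adjusted p = 1), the lowest p of the members there.

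Atp6v1e1, of the peripheral stalk, read 79.84, 71.71, 55.73 and 43.79 RPKM in WT, 53.32, 64.18, 73.25 and 32.52 RPKM in Wfs1HZ and 62.84, 47.17, 33.21 and 52.11 RPKM in Wfs1KO. The groups overlapped, with 1 Wfs1KO animal below the WT range. Its log2 fold change in Wfs1KO against WT was -0.36 (SE 0.25, 95% interval -0.93 to 0.21, limma adjusted p = 0.918).

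Clcn3 read 31.23, 32.39, 28.49 and 20.00 RPKM in WT, 30.09, 41.80, 29.09 and 13.56 RPKM in Wfs1HZ and 34.32, 35.22, 23.83 and 36.51 RPKM in Wfs1KO. Of the Wfs1KO animals 3 were above the WT range and 1 within it, and Wfs1HZ covered both. The log2 fold change in Wfs1KO against WT was 0.22 (SE 0.21, 95% interval -0.26 to 0.69, limma adjusted p = 0.934).

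Atp6ap2 (chrX:12587801-12617049, plus strand) had 119.19, 88.51, 70.30 and 55.78 RPKM in WT, 62.74, 76.88, 91.85 and 36.55 RPKM in Wfs1HZ and 78.20, 74.90, 44.90 and 85.70 RPKM in Wfs1KO. The Wfs1KO values lay within the WT range but for 1 below it, and the log2 fold change was -0.22 (SE 0.29, 95% interval -0.86 to 0.43, limma adjusted p = 0.95). Ostm1 had 17.03, 11.98, 9.51 and 12.11 RPKM in WT, 12.07, 13.07, 14.57 and 9.20 RPKM in Wfs1HZ and 13.72, 12.76, 9.49 and 14.83 RPKM in Wfs1KO. These ranges nearly coincided, and the log2 fold change of Ostm1 in Wfs1KO against WT was 0.02 (SE 0.22, 95% interval -0.49 to 0.52, limma adjusted p = 1).

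Between Wfs1KO and Wfs1HZ, limma again called 0 of 33 members at an adjusted p under 0.05 (0% of all entries, 0 entries) and 0 at an unadjusted p under 0.05 (2.45% of all entries), and in 0 members did the animals not overlap (1.43% of all entries). The median log2 fold change was 0.05 against 0.04 for all entries. Of the 22 members with a mean of at least 5 RPKM, 18 were higher in Wfs1KO, with a median of 0.25, against 67.5% higher and a median of 0.12 for all entries at such levels. Without Wfs1HZ replicate 4, 10 of the 22 were higher and their median was -0.04. Leaving out this animal moved all entries too. The median of all entries tested, of any level, was then -0.20, and that of the 33 members -0.07.

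After Atp6v1f, the members with the lowest p in this comparison were Atp6v1g1, Atp6v0d1, Clcn5 and Atp6v0c. Atp6v1g1 read 47.03, 28.34, 24.94 and 29.97 RPKM in WT, 22.12, 21.94, 32.37 and 14.12 RPKM in Wfs1HZ and 40.27, 30.14, 22.10 and 27.60 RPKM in Wfs1KO, and Wfs1HZ was the lowest group by its mean but overlapped both others. The log2 fold change of Atp6v1g1 was 0.43 for Wfs1KO against Wfs1HZ (SE 0.29, 95% interval -0.21 to 1.08, limma adjusted p = 1) and -0.54 for Wfs1HZ against WT (SE 0.29, 95% interval -1.19 to 0.11, limma adjusted p = 1), comparisons that share the Wfs1HZ animals. Without Wfs1HZ replicate 4 the log2 fold changes of Atp6v1g1 were 0.23 and -0.33. Atp6v0d1 read 115.51, 99.77, 71.38 and 81.78 RPKM in WT, 80.02, 81.04, 83.19 and 65.23 RPKM in Wfs1HZ and 121.14, 125.02, 69.12 and 92.93 RPKM in Wfs1KO. Here 3 Wfs1KO animals were above all Wfs1HZ animals and 1 was among them, with a log2 fold change of 0.37 (SE 0.25, 95% interval -0.19 to 0.92, limma adjusted p = 1).

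Clcn5 (chrX:7153810-7319358, minus strand) read 15.23, 14.67, 8.62 and 10.96 RPKM in WT, 12.41, 12.58, 9.81 and 4.28 RPKM in Wfs1HZ and 14.41, 15.82, 9.46 and 13.11 RPKM in Wfs1KO. The value of 4.28 RPKM, in Wfs1HZ replicate 4, was the lowest of the 12. Its log2 fold change was 0.52 in Wfs1KO against Wfs1HZ (SE 0.36, 95% interval -0.28 to 1.32) and -0.42 in Wfs1HZ against WT (SE 0.37, 95% interval -1.23 to 0.40), with a limma adjusted p of 1 in both. Without that animal the log2 fold changes of Clcn5 were 0.17 and -0.06. Atp6v0c, whose listed level is uncertain, read 8.14, 8.25, 14.90 and 12.03 RPKM in Wfs1HZ and 13.86, 12.35, 13.59 and 13.89 RPKM in Wfs1KO, with a log2 fold change of 0.35 (SE 0.26, 95% interval -0.22 to 0.92, limma adjusted p = 1). Its Wfs1HZ values lay on both sides of the narrow Wfs1KO range.

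Between Wfs1HZ and WT, limma called 0 of 33 members at an adjusted p under 0.05 (0% of all entries, 0 entries) and 0 at an unadjusted p under 0.05 (2.35% of all entries), and the animals overlapped in all 33 (no overlap in 1.66% of all entries). The median log2 fold change was -0.12 against 0.04 for all entries. Among the 22 members with a mean of at least 5 RPKM, 2 were higher and the median was -0.17, against 35.6% higher and a median of -0.10 for all entries at such levels. The number of higher members was 9 of 22 without WT replicate 1, 9 without Wfs1HZ replicate 4, 4 without WT replicate 2, 0 without WT replicate 3 and 1 without any 1 of Wfs1HZ replicates 1, 2 and 3. The median of the 22 without WT replicate 1 or Wfs1HZ replicate 4 was -0.06. The median of all entries tested, of any level, was 0.05 without WT replicate 1 and 0.25 without Wfs1HZ replicate 4.

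Atp6v1c1 had the lowest p of the members in this comparison. It read 61.41, 51.08, 42.86 and 40.02 RPKM in WT, 40.42, 40.46, 34.17 and 20.25 RPKM in Wfs1HZ and 55.53, 42.79, 30.06 and 41.99 RPKM in Wfs1KO. Of the Wfs1HZ animals 2 lay just above the lowest WT value and 2 below it. The log2 fold change in Wfs1HZ against WT was -0.56 (SE 0.26, 95% interval -1.14 to 0.02, limma adjusted p = 1, exact permutation p = 0.0857), and -0.33 without Wfs1HZ replicate 4. The lowest exact p that 4 against 4 animals allow is 0.0286.

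The other members with low p in this comparison were Atp6v0a1 and Atp6ap1. Atp6v0a1, with the values above, had a log2 fold change of -0.35 in Wfs1HZ against WT (SE 0.24, 95% interval -0.88 to 0.17, limma adjusted p = 1). Atp6ap1 (chrX:74297097-74304721, plus strand) read 197.69, 135.76, 108.85 and 119.57 RPKM in WT, 127.01, 84.27, 137.38 and 84.20 RPKM in Wfs1HZ and 162.78, 132.23, 109.12 and 100.37 RPKM in Wfs1KO. The groups overlapped, with 2 Wfs1HZ animals below the WT range and 2 within it. The log2 fold change was -0.37 (SE 0.27, 95% interval -0.98 to 0.23, limma adjusted p = 1).

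Single animals stood out across many members at once. WT replicate 1 held the highest of the 12 values in 12 of the 22 members with a mean of at least 5 RPKM, against 13.4% of all entries at such levels. Wfs1HZ replicate 4 held the lowest in 14 of the 22, against 52.1% of all entries, so most entries at such levels were lowest there too. After median-of-ratios scaling Wfs1HZ replicate 4 was lowest in 4 of the 22, whereas WT replicate 1 was still highest in 11 of the 22, against 12.2% of all entries. The acinar sum was highest in Wfs1HZ replicate 4 (298700 RPKM) and Wfs1KO replicate 3 (268700 RPKM), the libraries with the lowest V1 sums (397.5 and 423.7 RPKM). The lowest V0 sums were those of Wfs1HZ replicate 4 (247.7 RPKM) and WT replicate 3 (257.2 RPKM), with Wfs1KO replicate 3 at 290.9 RPKM. The part of acinar RNA in these values was not tested. The pooled SD within genotypes of the 22 members had a median of 0.41 on the log2 scale, from 0.24 for Atp6v1d to 0.58 for Atp6v0e2, against 0.43 for all entries at such levels.

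**Figure D4:**
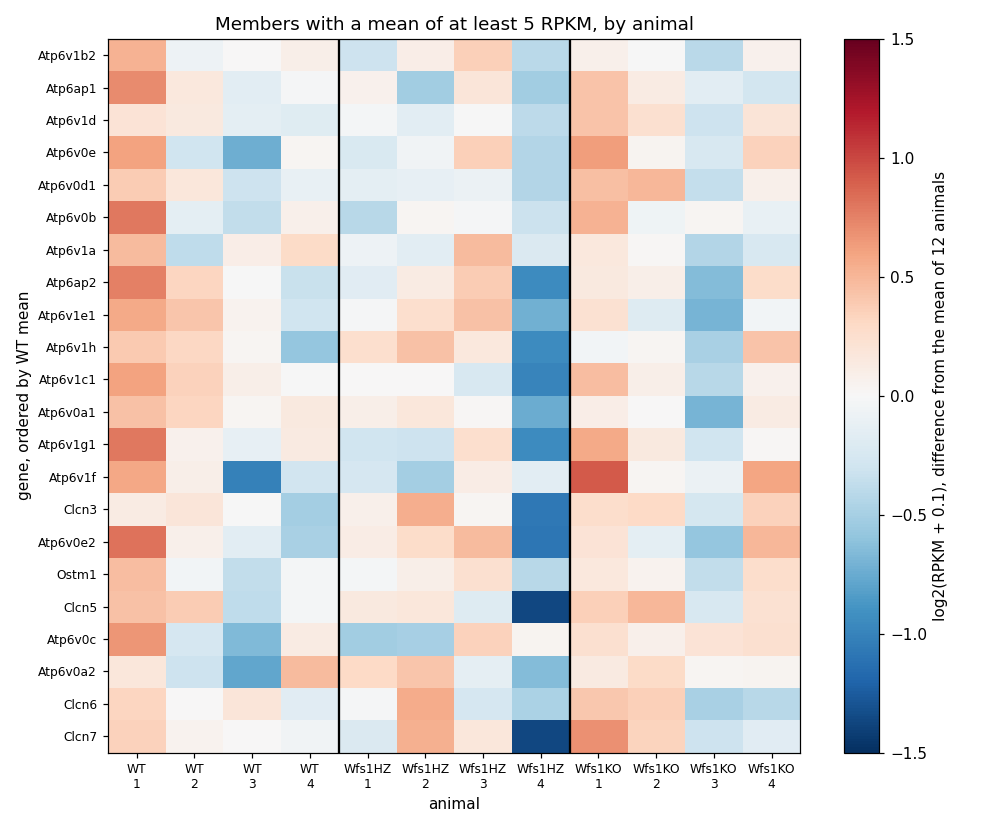
log2(RPKM + 0.1) of 22 members with a mean of at least 5 RPKM (rows) in each of the 12 animals (columns, black lines between genotypes), as the difference from the mean of the gene over all animals (colour, red higher). WT replicate 1 is red and Wfs1HZ replicate 4 blue in nearly all rows, while no block of colour follows a genotype.

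Another animal stood out in the low members. Wfs1HZ replicate 2 held the highest value in 8 of 11 members with a mean from 0.1 to 5 RPKM, against 58.8% of all entries at such levels. The 8 include Atp6v1g3, where it tied with Wfs1KO replicate 3 at 0.72 RPKM. After median-of-ratios scaling it was highest in 6 of the 11, against 46% of all entries. Wfs1HZ replicate 2 was the library with the lowest estimated depth and the highest median over all entries.

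Other genes of the same pathways, from lists chosen with results of these data known, were read in the same way, beside the 5.64% of all entries with an unadjusted limma p under 0.05 between Wfs1KO and WT and the 57.4% that were higher in Wfs1KO. Of 12 assembly factors and partners of the pump, 0 passed an adjusted p under 0.05 between Wfs1KO and WT in limma and 0 an unadjusted p under 0.05, with a median log2 fold change of -0.06 and 4 of 12 higher. Of 28 genes of lysosomal hydrolases and membrane proteins, 0 passed the adjusted threshold and 1 an unadjusted p under 0.05, 5 were higher and the median was -0.16. The lowest p was that of Lipa, the lysosomal acid lipase, at 12.8 ± 2.77 RPKM in WT and 8.38 ± 0.891 RPKM in Wfs1KO (log2 fold change -0.58, SE 0.20, limma adjusted p = 0.835).

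The lysosomal list was read in the other comparisons too, which share animals with the first and with each other. Between Wfs1KO and Wfs1HZ 21 of the 28 genes were higher in Wfs1KO (median log2 fold change 0.13) and 0 had an unadjusted p under 0.05, where 53.5% of all entries, and 67.5% of those with a mean of at least 5 RPKM, were higher. Between Wfs1HZ and WT 3 of the 28 were higher in Wfs1HZ (median -0.34) and 1 was lower at an unadjusted p under 0.05, where 53.2% and 35.6% of these entries were higher.

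Of 16 other ion pathways of granules, endosomes and lysosomes, 0 passed the adjusted threshold and 1 an unadjusted p under 0.05, 10 were higher and the median was 0.11. Ano1, a calcium-activated chloride channel of the cell surface, read 4.64 ± 1.44 RPKM in WT and 7.18 ± 1.62 RPKM in Wfs1KO (log2 fold change 0.64, SE 0.27, limma adjusted p = 0.876). Of 6 genes of granule prohormone processing 0 passed the adjusted threshold, 1 had an unadjusted p under 0.05 and the median was -0.34. Slc30a8, the zinc transporter of the insulin granule, read 63.1 ± 17.6 RPKM in WT and 25.2 ± 19.2 RPKM in Wfs1KO (log2 fold change -1.51, SE 0.43, limma adjusted p = 0.835), beside beta cell marker sums of 32020 to 179800 RPKM in WT and 22340 to 91410 RPKM in Wfs1KO. The part of the beta cell share in this value was not tested.

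Many genes of lysosomes and of the pump carry in their promoters the letters CACGTG, the core of the element bound by TFEB and its relatives, the MiT/TFE transcription factors. Promoters from RefSeq (GRCm38.p6, 250 bases before to 50 after the start of a transcript) were found for 26 of the 35 members, 33 promoters in all. CACGTG, which reads the same on both strands, occurred in 7 of the 33 promoters (21.2%), of 7 genes, and in 7.15% of all 32851 promoters of the same length. TCACGTGA, which contains it, occurred in 5 of the 33 (15.2%) and in 0.974% of all promoters. A match is a description of these letters only.

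The matches are shown because they fall in both functions, the pump (Atp6v1a, Atp6v0b, Atp6v0d1 and Atp6v0e) and the chloride exchangers of vesicles (Clcn4-2, Clcn6 and Clcn7). Each line gives 30 bases 5′ to 3′ on the strand of the gene, with CACGTG in capitals.
Atp6v1a, chr16:44139373-44139402, minus strand: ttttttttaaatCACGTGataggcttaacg
Atp6v0b, chr4:117887348-117887377, minus strand: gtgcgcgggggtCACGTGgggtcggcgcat
Atp6v0b, chr4:117887330-117887359, minus strand: gggtcggcgcatCACGTGcgccggtcaggt
Atp6v0d1, chr8:105566050-105566079, minus strand: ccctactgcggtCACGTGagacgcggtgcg
Atp6v0e, chr17:26676387-26676416, plus strand: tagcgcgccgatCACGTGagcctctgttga
Clcn4-2, chr7:7299693-7299722, minus strand: agacagacgggaCACGTGaatccacacgga
Clcn6, chr4:148038844-148038873, minus strand: gctcgagagggcCACGTGaccctcccgggg
Clcn6, chr4:148038821-148038850, minus strand: cccggggccagtCACGTGaggcgcggatcc
Clcn7, chr17:25133364-25133393, plus strand: tccgtcgtcagtCACGTGggcaccgatgat
Clcn7, chr17:25133386-25133415, plus strand: ccgatgatagatCACGTGagacctgggcgc

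Distances are from the start of the RefSeq transcript. The letters began 131 bases before it in Atp6v1a and 153 bases before it in Clcn4-2, and within 48 bases of it in the others. In Atp6v1a, Clcn4-2 and Atp6v0e the match lies inside the gene as placed by GENCODE, which starts further upstream. For 27 of the 33 promoters the part after the start was found in a GENCODE transcript of the gene. Atp6v0b, Clcn6 and Clcn7 held 2 matches each.

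None of the 7 genes with these letters passed the test in a comparison. Their log2 fold changes ran from -0.25 to 0.29 in Wfs1KO against WT (median 0.05, 5 of 7 higher, against 57.4% of all entries). There 0 of 7 had an unadjusted limma p under 0.05, against 5.64% of all entries. The medians were 0.28 in Wfs1KO against Wfs1HZ (6 of 7 higher) and -0.13 in Wfs1HZ against WT (1 of 7 higher), comparisons that share the Wfs1HZ animals. Of all entries 53.5% and 53.2% were higher in these 2 comparisons. Among entries with a mean of at least 5 RPKM the shares were 67.5% and 35.6%. Again 0 of 7 had an unadjusted limma p under 0.05, against 2.45% and 2.35% of all entries. Of the 4 MiT/TFE factor genes, 0 passed the adjusted threshold between Wfs1KO and WT and 0 an unadjusted p under 0.05. Tfec, a member of that family known from macrophages, had the lowest p of the 4, at 0.445 ± 0.493 RPKM in WT and 1.06 ± 0.504 RPKM in Wfs1KO (log2 fold change 1.48, SE 0.75, limma adjusted p = 0.879). Tfeb read 0.857 ± 0.169 RPKM in WT and 1.09 ± 0.591 RPKM in Wfs1KO (log2 fold change 0.20, SE 0.44, limma adjusted p = 0.975).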

How the data were processed

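Islet RNA of 12 mice, 4 per genotype, was sequenced by the authors, who made cDNA from 10 ng of total RNA (Ovation RNA-Seq System), ran barcoded fragment libraries on a SOLiD 5500xl instrument (75 bp forward and 35 bp reverse) and mapped the reads to mm10 with LifeScope. The authors deposited RPKM values, 1 column per animal, rounded and without a log. The annotation, the counting tool and strand use are not given in the sources used here. Genotypes and replicate numbers came from the labels, and samples were separate animals. The count test of the study could not be rerun on such values.

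The analysis used log2(RPKM + 0.1), so that fold changes of low genes are understated. Each pair of genotypes was fitted with limma (version 3.58.1, R 4.3.3) with a variance trend, for 21701 entries with a mean of at least 0.1 RPKM, with two-sided p-values and Benjamini-Hochberg adjustment over all of them. Single genes also had an exact two-sided permutation test. The script was tested on simulated data. Depth was estimated from short RNA genes, whose RPKM are multiples of 1 read: 96.0% to 100% of their values came out whole within 0.05 reads with RefSeq lengths. The depth was chosen to make this share high, so the share is not an independent check of it. Approximate reads follow from the estimated depth and cover counting error only. Gene positions are from GENCODE M21 (GRCm38). Summaries and plots were made in Python 3.11.15 with numpy 2.4.6, pandas 2.3.3 and matplotlib 3.10.9.

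The members, gene lists and tests were chosen with earlier results of these data known. Of the 35 members 33 are named with their levels, and 2 enter the counts but are not reported here; fold changes are given for the 5 members with the lowest p in each comparison, and in Wfs1KO against WT for Atp6v1a, Atp6ap2, Clcn3 and Ostm1, of which Atp6v1a and Clcn3 are also among these 5. From each other list at most the 2 genes with the lowest p in Wfs1KO against WT are named. Each fit was repeated with quantile normalization or median-of-ratios scaling, with another pseudocount (0.01 or 1), with the filter removed or raised to 1 RPKM, with a robust variance or one that ignores the trend, with the 12 animals fitted jointly, with weighted samples, with a replicate block and with each animal left out.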

Additional observations from a re-analysis of the deposited data

Results flagged for a closer look

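In each genotype the highest and the lowest of the 4 animals were compared with the others by Dixon's ratio of the gap to the range, at its 95% critical value. Of 99 groups (the 33 members named with their levels, of which 32 were tested, in 3 genotypes) 9 passed it (9.09%). For normally distributed values chance gives about 1 in 20, but the ratio was applied to RPKM. A group in which all animals but 1 share a value passes whatever the size of the gap, as for Atp6v1e2 and Atp6v1b1 below. The 9.09% is therefore not evidence of an excess over chance. Of the 9 groups, 4 were in Wfs1HZ replicate 2. This library had the lowest estimated depth (2182000 reads), the highest median over all entries (3.37 RPKM) and the highest stromal and endothelial marker sum (249.2 RPKM, against 21.7 to 124.1 RPKM in the others), and their part in these values was not tested.

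In Wfs1HZ replicate 2, Atp6v1g2 stood at 14.51 RPKM against 1.85 to 3.63 RPKM in the other Wfs1HZ animals. Atp6v0d2 was at 5.61 RPKM (others 0.24 to 0.82), Atp6v0a4 at 4.01 RPKM (others 0.41 to 0.57) and Clcn1 at 1.15 RPKM (others 0.08 to 0.21). These are genes of low level in islets that are known from neurons, osteoclasts, kidney and muscle.

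In Wfs1KO replicate 4, Atp6v0d2 was at 2.17 RPKM (others 0.37 to 0.52) and Atp6v0a4 at 1.29 RPKM (others 0.34 to 0.49), and this library was the other one with a low acinar sum (8204 RPKM, against 8633 RPKM in Wfs1HZ replicate 2 and 51970 RPKM or more in the remaining 10). In the last 3 cases the other 3 animals were at 0, and the values are worth few reads: Atp6v1e2 at 1.69 RPKM in WT replicate 3 and 0.32 RPKM in Wfs1KO replicate 2, and Atp6v1b1 at 0.20 RPKM in Wfs1HZ replicate 1.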

How the results depend on the processing

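Under all 19 to 20 alternatives per comparison, 0 members passed an adjusted p under 0.05. The lowest adjusted p was 0.472, for Atp6v0d1 in Wfs1KO against Wfs1HZ with sample weights. Of 333 recomputed fold changes of named members 328 kept their direction, and the 5 that did not were those of Ostm1 in Wfs1KO against WT, at -0.01 with median-of-ratios scaling, 0.00 (just below zero) with quantile normalization, -0.11 without WT replicate 3, -0.03 without Wfs1KO replicate 1 and -0.06 without Wfs1KO replicate 4, within -0.11 to 0.17 over all animals left out.

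Counts at an unadjusted p under 0.05 moved from 0. In Wfs1KO against WT the count was 2 with median-of-ratios scaling and 2 with quantile normalization (Atp6v0a1 and Atp6v1e1, both lower), where 7.24% and 6.85% of all entries passed. In Wfs1KO against Wfs1HZ it was 1 with sample weights (Atp6v0d1; 10.3% of all entries), and 0 to 2 when animals were left out, with Atp6v1f in each of the 3 cases above 0 (without Wfs1HZ replicate 3, Wfs1KO replicate 2 or Wfs1KO replicate 3, with 2.53%, 1.6% and 2.96% of all entries) and Atp6v0d1 in the last. In Wfs1HZ against WT it was 1 with median-of-ratios scaling, quantile normalization, sample weights and the replicate block (Atp6v1c1, lower, in each), where 4.13%, 4.4%, 7.09% and 3.94% of all entries passed. It was 0 to 1 when animals were left out (Atp6v1c1 without Wfs1HZ replicate 1 or 2, with 2.84% and 4.85% of all entries, and Atp6v1g1 without Wfs1HZ replicate 3, with 2.83%). The cause was not tested.

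Whether the replicate numbers pair the animals was not settled. Deviations of same-numbered animals correlated at -0.13 to 0.06 in Wfs1KO against WT and -0.17 to 0.09 in Wfs1KO against Wfs1HZ. In Wfs1HZ against WT they correlated at -0.05 to 0.23. In these comparisons, in this order, 3, 1 and 5 of 8 animals correlated best with their own number. The block moved no other count of members. Over all entries it took the adjusted calls in Wfs1KO against WT from 3 to 0 and the unadjusted ones in Wfs1HZ against WT from 511 to 854. Leaving out Wfs1HZ replicates 2 and 4 together, an alternative chosen after seeing the data, gave 0 members at either threshold. The 10 members under 1 RPKM in WT rest on few reads, and 8 of them were tested, all with intervals beyond a 2-fold change. With 4 animals per genotype small changes of the abundant members cannot be resolved.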
